A study of Homo sapiens with 8 samples.

Results

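The miR-23, miR-27 and miR-24 miRNAs are made from 2 short gene clusters that arose as copies of each other. The 5 miRNAs described here, hsa-miR-23a-3p, hsa-miR-23b-3p, hsa-miR-27a-3p, hsa-miR-27b-3p and hsa-miR-24-3p, were chosen by name as the 3p arms of these clusters, and all 5 were among the 2006 human miRNAs on the array. They were measured in 2 HER2-positive breast cancer cell lines, BT474 and SKBR3, to see which miRNAs respond to trastuzumab, an antibody against the HER2 receptor. Total RNA was labelled with the dye Cy3 and hybridized to one-colour Agilent arrays, on which each miRNA is read by 30 spots and given as a summed signal with a detection flag.

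The 4 groups were BT474 with PBS, BT474 with 6 µg/mL trastuzumab, SKBR3 with PBS and SKBR3 with 6 µg/mL trastuzumab, each for 144 h and each labelled as 2 replicates. PBS, in which trastuzumab was dissolved, was the control. BT474 is labelled as positive for the oestrogen receptor and SKBR3 as negative, and the lines were kept in different media, with insulin in that of BT474 only. SKBR3 PBS replicate 1 was deposited as a copy of the file of BT474 PBS replicate 1. This array was counted once, as BT474, which left 7 distinct arrays and a single SKBR3 PBS array. The replicates were biological replicates of 1 line each, so that p-values measure the spread between a few cultures. All arrays were on 1 slide and were read in 1 scan. The slide held trastuzumab arrays in row 1 and PBS arrays in row 2, and treatment and slide row therefore cannot be told apart. BT474 arrays lay in slide columns 1 and 2 and SKBR3 arrays in slide columns 3 and 4, so that line and column cannot be told apart either. The software detected 247 to 256 miRNAs on the BT474 arrays and 201 to 218 on the SKBR3 arrays. The detected signals summed to between 446651 and 606660 on the BT474 arrays and to between 246495 and 320578 on the SKBR3 arrays. SKBR3 arrays were thus dimmer as a whole, and the size of any difference between the lines depends on how arrays are scaled.

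A miRNA guides a silencing complex to messenger RNAs that pair with its seed, the stretch of bases near its 5′ end, so that miRNAs with the same seed share most predicted targets. Each cluster is transcribed as 1 precursor that is cut into a miR-23, a miR-27 and a miR-24 hairpin. These miRNAs are best known from blood vessels, blood cell formation, fat cell differentiation and tumours. Glutaminase is a known target of miR-23a and miR-23b, the repressor ZBTB10 a known target of miR-27a in breast cancer cells, and cell cycle genes such as E2F2 are known targets of miR-24.

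The mature sequences are shown because the comparison of the a and b copies rests on how little they differ. All 5 were matched by name in RefSeq (GRCh38.p14) and are written 5′ to 3′, with the seed, bases 2 to 8, in capitals. They hold 3 different seeds.
hsa-miR-23a-3p: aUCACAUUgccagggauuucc
hsa-miR-23b-3p: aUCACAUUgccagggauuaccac
hsa-miR-27a-3p: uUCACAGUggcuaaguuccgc
hsa-miR-27b-3p: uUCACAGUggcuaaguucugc
hsa-miR-24-3p: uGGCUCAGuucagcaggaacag

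Counted from 1 at the 5′ end, miR-23a-3p and miR-23b-3p differ over their shared 21 bases by U19A, and miR-23b-3p is 2 bases longer. For miR-27a-3p and miR-27b-3p the difference over 21 bases is C19U. Both pairs therefore differ far from the seed. The a copies come from the minus strand of chromosome 19, where the hairpins MIR23A (chr19:13836587-13836659), MIR27A (chr19:13836440-13836517) and MIR24-2 (chr19:13836287-13836359) lie in this order along the strand within 373 bases, in the gene MIR23AHG. The b copies come from the plus strand of chromosome 9, where MIR23B (chr9:95085208-95085304), MIR27B (chr9:95085445-95085541) and MIR24-1 (chr9:95086021-95086088) span 881 bases in the gene AOPEP. MIR24-1 and MIR24-2 give the same mature miR-24-3p, so that the signal of miR-24-3p is the sum of both clusters.

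All 5 miRNAs were detected on all 7 distinct arrays, with 30 of 30 spots well above background and 0 saturated on each. The software's own error of the summed signal was 7.12% to 8.31%. Each miRNA was read by 2 probes of 15 spots. The probes of different miRNAs bind differently, so levels are compared between arrays for 1 miRNA at a time and not between miRNAs.

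The summed signal of miR-23a-3p, as scanned, was 8436 and 10714 on the BT474 PBS arrays and 12577 and 15171 on the BT474 trastuzumab arrays. On the SKBR3 arrays it was 3509 with PBS and 5119 and 4511 with trastuzumab. The 4 BT474 arrays were all above the 3 SKBR3 arrays, and within each line the trastuzumab arrays were above the PBS arrays. For miR-23b-3p the signals were 4432 and 5672 with PBS and 6539 and 7808 with trastuzumab in BT474. In SKBR3 they were 2096 with PBS and 3128 and 2698 with trastuzumab. The order of the groups was that of miR-23a-3p, with BT474 trastuzumab at the top and SKBR3 PBS at the bottom.

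miR-27a-3p gave 7185 and 9722 on the BT474 PBS arrays and 12165 and 15209 on the BT474 trastuzumab arrays. It gave 3073 on the SKBR3 PBS array and 4773 and 3931 on the SKBR3 trastuzumab arrays. The groups again did not overlap. miR-27b-3p gave 6078 and 7849.9 with PBS and 8649.7 and 10926 with trastuzumab in BT474, and 2762 with PBS and 4023 and 3446 with trastuzumab in SKBR3. miR-24-3p gave 9566 and 12617 with PBS and 13671 and 16138 with trastuzumab in BT474. In SKBR3 it gave 3382 with PBS and 4931 and 4477 with trastuzumab. As scanned, all 5 miRNAs therefore held the same order of groups without overlap. How many of all miRNAs held this order was not counted. Over the 173 miRNAs detected on all arrays, the median log2 difference without scaling was 0.71 between BT474 and SKBR3. Between trastuzumab and PBS it was 0.22 in BT474 and 0.36 in SKBR3. Part of this order belongs to the arrays as a whole, and the plot of signals by array sets the scanned values beside the values after quantile normalization, which gives every array the same distribution of signals.

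**Figure D1:**
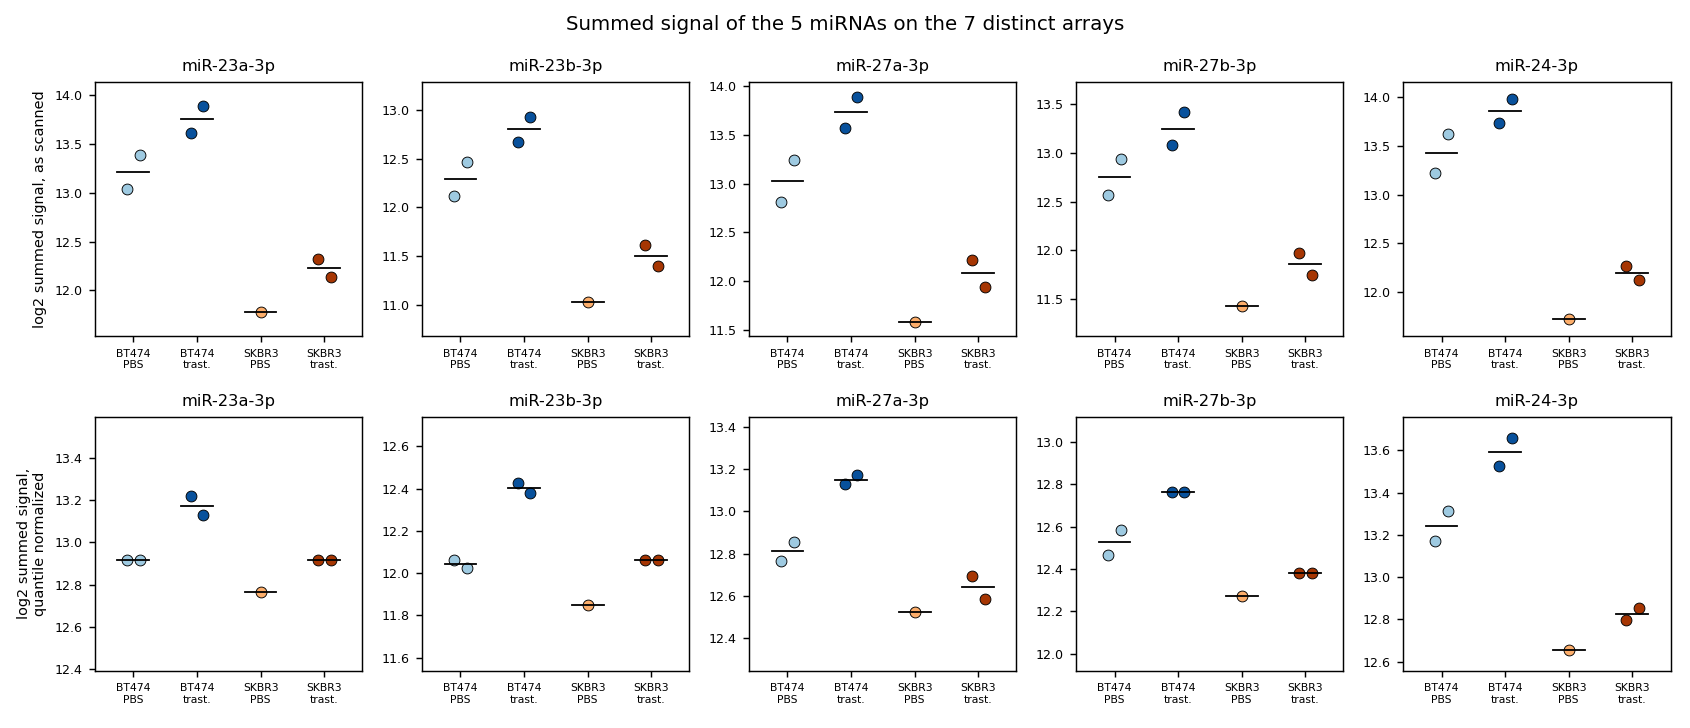
log2 summed signal (y axis) of the 5 miRNAs on the 7 distinct arrays, by cell line and treatment (x axis), as scanned in the upper row and quantile normalized in the lower row; points are arrays, bars are group means, SKBR3 PBS has 1 array, and the panels of a row have separate y ranges of equal width. After normalization the lines still do not overlap for miR-27a-3p, miR-27b-3p and miR-24-3p, but meet for miR-23a-3p and miR-23b-3p.

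After quantile normalization of the 7 arrays, miR-24-3p stood at a log2 signal of 13.24 ± 0.10 (SD, n = 2) in BT474 with PBS and 13.59 ± 0.091 (SD, n = 2) with trastuzumab. In SKBR3 it stood at 12.66 with PBS (n = 1) and at 12.83 ± 0.041 (SD, n = 2) with trastuzumab. Its groups kept their order and did not overlap. miR-23a-3p stood at 12.92 on both BT474 PBS arrays and also on both SKBR3 trastuzumab arrays, because it held rank 14 on all 4 and the normalization gives each rank 1 value. The 2 groups were thus not told apart for miR-23a-3p. For miR-23b-3p, BT474 with PBS (12.04 ± 0.026, SD, n = 2) and SKBR3 with trastuzumab (12.06 on both arrays) overlapped in the same way.

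The first comparison set BT474 against SKBR3 over both treatments. All 5 miRNAs were higher in BT474. The difference was largest for miR-24-3p, the member that both clusters make, at 0.68 ± 0.065 on the log2 scale (SE; 95% CI 0.49 to 0.86), or 1.60-fold, with a limma adjusted p of 0.00172 over 305 miRNAs. miR-27a-3p was 1.32-fold higher (log2 difference 0.40 ± 0.051, SE; adjusted p = 0.00405 by limma) and miR-27b-3p 1.25-fold (0.32 ± 0.046, SE; adjusted p = 0.00541 by limma). For the miR-23 pair the differences after quantile normalization were 1.20-fold for miR-23b-3p (0.27 ± 0.034, SE; adjusted p = 0.00401 by limma) and 1.15-fold for miR-23a-3p (0.20 ± 0.040, SE; adjusted p = 0.0139 by limma). The 4 BT474 arrays all lay above the 3 SKBR3 arrays for miR-24-3p, miR-27a-3p and miR-27b-3p, and not for miR-23a-3p and miR-23b-3p. Such a separation was not counted over the 305 miRNAs. The order of the 5 holds for this normalization: with no scaling miR-23a-3p (1.48) lay above miR-27b-3p (1.35), and miR-23b-3p (1.28) was lowest.

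Calls were common in this comparison. Of 305 miRNAs tested, 209 (68.5%) passed an adjusted p of 0.05, and 102 (33.4%) passed it as higher in BT474, against 5 of 5 members. The 5 differences had a median of 0.32, while the 173 miRNAs detected on all arrays had a median of -0.42. Relative to that median the members were 0.62 to 1.09 higher in BT474. With arrays scaled to the 75th percentile of the detected miRNAs, the median moved to -0.20 and the members to between 0.37 and 0.77. With no scaling at all the median was 0.71 and the members lay between 1.28 and 1.68. In both of these settings they lay 0.57 to 0.97 above the median of the 173. All 5 passed, beside 213 of 307 miRNAs with scaling to the 75th percentile and 186 of 307 with no scaling, 165 of these higher in BT474. The 173 leave out miRNAs not detected on every array, among them those detected in BT474 alone. Over all miRNAs tested the medians were higher, at 0 with quantile normalization, 0.27 with scaling to the 75th percentile and 0.86 with no scaling. The 5 members lay above these medians too, by less. With quantile normalized mean spots 2 of 5 passed, beside 342 of 1616 miRNAs. Without SKBR3 PBS replicate 2 the number was 4 of 5, beside 208 of 302, with miR-23a-3p at 0.13. The direction thus held under each scaling, while the size of the difference depended strongly on it. From quantile normalization to no scaling, miR-23a-3p moved from 0.20 to 1.48 and miR-24-3p from 0.68 to 1.68.

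**Figure D2:**
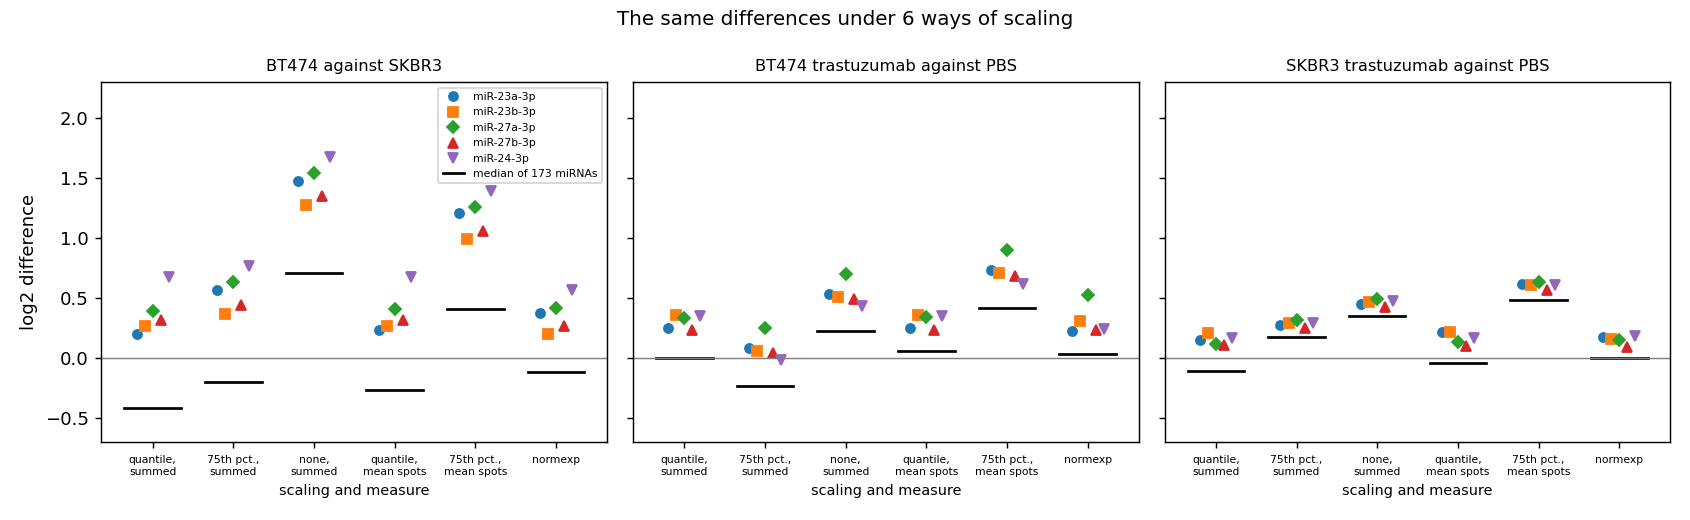
log2 difference (y axis) of the 5 miRNAs (symbols) under 6 settings of scaling and signal measure (x axis), for the lines and for treatment within each line; black bars are the median of the 173 miRNAs detected on all distinct arrays. The symbols lie above the black bar in every setting shown, while the distance from 0 changes with the scaling. In BT474 with trastuzumab miR-24-3p falls just under 0 after scaling of the summed signals to the 75th percentile. That percentile is taken over detected miRNAs for summed signals and over all 2006 miRNAs for mean spots.

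Within slide row 2, that is on the PBS arrays alone, the differences between the lines were 0.15 to 0.58, and 1 of 5 passed, beside 140 of 277 miRNAs, in a fit to 3 arrays with 1 SKBR3 array. It was miR-23a-3p, whose 2 BT474 PBS arrays held equal values. Within slide row 1, on the trastuzumab arrays alone, they were 0.26 to 0.77 and 5 of 5 passed, beside 184 of 282 miRNAs. With all 8 labelled arrays, a copy of a BT474 array stands in the SKBR3 PBS group. The differences were then 0.16 to 0.56 and 0 of 5 passed in limma, beside 6 of 305 miRNAs. At an unadjusted p under 0.05 the counts were 2 members and 151 miRNAs.

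**Figure D3:**
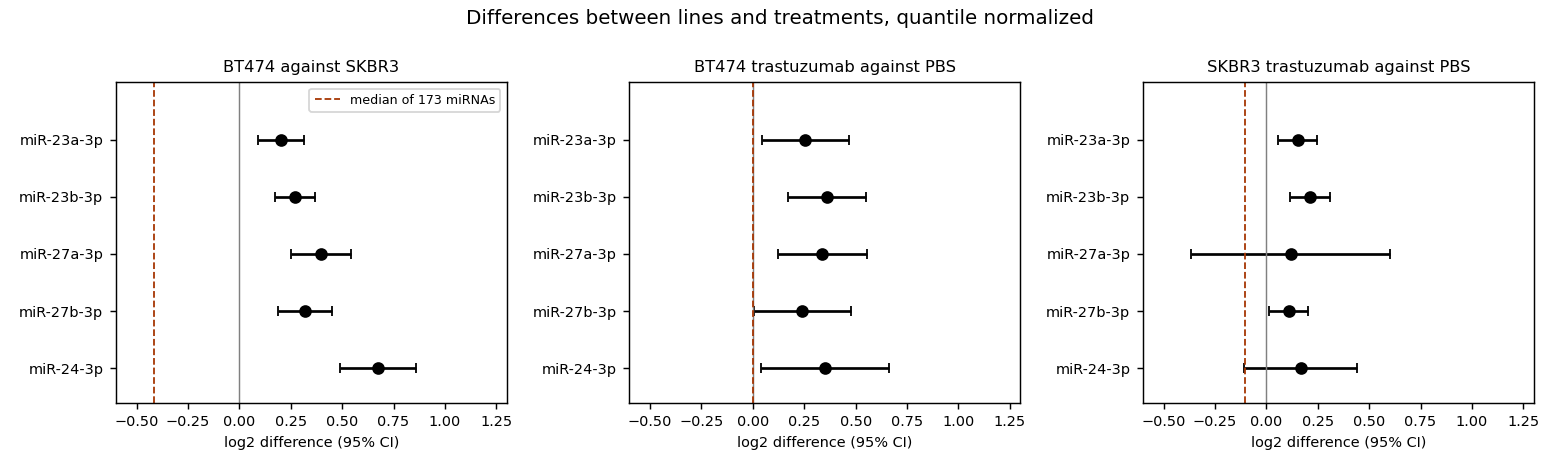
log2 difference (x axis, quantile normalized) of each of the 5 miRNAs (y axis) between the lines and between trastuzumab and PBS in each line, as estimates (points) with 95% confidence intervals from limma (bars); the dashed line is the median of the 173 miRNAs detected on all distinct arrays. Every estimate lies to the right of the dashed line; the narrow SKBR3 intervals of miR-23a-3p, miR-23b-3p and miR-27b-3p come from trastuzumab arrays with equal values.

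In BT474, trastuzumab was compared with PBS on 2 arrays each. All 5 miRNAs were higher on both trastuzumab arrays than on both PBS arrays, but none passed an adjusted p of 0.05. How many of the 285 miRNAs tested separated in this way was not counted, so the separation is not read as particular to the members. miR-23b-3p was nearest, with a log2 difference of 0.36 ± 0.058 (SE; 95% CI 0.17 to 0.55), or 1.29-fold, and an adjusted p of 0.0599 by limma over 285 miRNAs. miR-27a-3p, the copy tied to ZBTB10, had a difference of 0.34 ± 0.066 (SE; adjusted p = 0.0813 by limma) and miR-24-3p of 0.35 ± 0.096 (SE; adjusted p = 0.118 by limma). miR-23a-3p and miR-27b-3p had differences of 0.26 and 0.24. Trastuzumab arrays and PBS arrays in the same slide column differed by 0.18 to 0.36 in column 1 and by 0.30 to 0.37 in column 2 over the 5 miRNAs.

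Of the 285 miRNAs, 41 (14.4%) passed an adjusted p of 0.05 in BT474, against 0 of 5 members, and 0 miRNAs passed with quantile normalized mean spots (limma; 186 at an unadjusted p under 0.05). At an unadjusted p under 0.05, 5 of 5 members were higher, against 57 (20.0%) of all tested. That count of members fell to 0 with scaling to the 75th percentile, without normalization, with quantile normalized mean spots and with the deposited values. Over all miRNAs and in either direction, 127 of 287 had an unadjusted p under 0.05 with scaling to the 75th percentile. Quantile normalization gave 104 of 285, and no normalization 56 of 287. Some miRNAs also had such a p with the deposited values. With 1 array left out, the 5 differences stayed above 0, at 0.17 to 0.46. The study's methods ask for a fold above 2 at an unadjusted p below 0.05, which 40 miRNAs (14.0%) and 0 members passed. The 173 miRNAs detected on all arrays had a median difference of 0. After scaling to the 75th percentile their median was -0.23 and the members lay between -0.016, for miR-24-3p, and 0.25, for miR-27a-3p, so that the direction of miR-24-3p turned. Taken from the median of the same scaling, the members were 0.21 to 0.48 higher. Passing an adjusted p of 0.05 depended on the fit: with the spread taken from all 7 arrays, miR-23a-3p, miR-23b-3p and miR-27a-3p passed in limma (adjusted p = 0.0367, 0.0111 and 0.0355), beside 74 of 305 miRNAs, and with normexp background correction miR-23b-3p and miR-27a-3p did, beside 105 of 2006.

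In SKBR3, 2 trastuzumab arrays were set against the 1 distinct PBS array, which was assumed to vary like the trastuzumab arrays. All 5 miRNAs were higher on both trastuzumab arrays, and how many of all tested miRNAs were so was not counted. The mean of these arrays lay 0.11 to 0.21 above the PBS array on the log2 scale, and no member passed an adjusted p of 0.05. After quantile normalization miR-23b-3p had the largest difference, 0.21 (95% CI 0.12 to 0.31; adjusted p = 0.0985 by limma over 227 miRNAs), followed by miR-24-3p with 0.17 (95% CI -0.11 to 0.44; adjusted p = 0.240 by limma). Without scaling miR-27a-3p had the largest difference, 0.50 against 0.47 for miR-23b-3p in SKBR3 and 0.70 against 0.51 in BT474. For miR-23a-3p, miR-23b-3p and miR-27b-3p the 2 trastuzumab arrays held the same rank and thus equal normalized values, so that their standard errors came from the spread of the other miRNAs alone. Of 227 miRNAs, 15 (6.61%) passed an adjusted p of 0.05, and 0 did in limma with scaling to the 75th percentile (43 at an unadjusted p under 0.05) or with quantile normalized mean spots (267 unadjusted). At an unadjusted p under 0.05, 3 members and 33 miRNAs (14.5%) were higher, and by the study's thresholds 26 miRNAs (11.45%) and 0 members passed. The 3 are the members with equal trastuzumab values. No member was left with scaling to the 75th percentile, without normalization, with normexp or with the deposited values. The same held with mean spots, quantile normalized or scaled to the 75th percentile, and with the 8 labelled arrays. Other miRNAs still had an unadjusted p under 0.05 in each of these settings. The median of the 173 miRNAs was -0.10, and the members lay 0.21 to 0.31 above it. With scaling to the 75th percentile that distance was 0.074 to 0.14. In slide column 3, which held 1 array of each treatment, the 5 differences were 0.064 to 0.21.

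The difference between the 2 responses was tested as an interaction over the 7 arrays, in which the single SKBR3 PBS array has no replicate and is assumed to vary like the other groups. It was 0.10 to 0.22 on the log2 scale, larger in BT474, and 0 of 5 members passed in limma (adjusted p = 0.254 to 0.478), against 49 of 305 miRNAs (16.1%). At an unadjusted p under 0.05 the count was 92 miRNAs and 0 members. For miR-27a-3p, with the largest difference of the 5, the 95% CI ran from -0.070 to 0.51. The 173 miRNAs detected on all arrays had a median of 0.091, and the members lay 0.014 to 0.13 above it. After scaling to the 75th percentile all 5 differences turned negative, from -0.31 to -0.066, with a median of -0.41 over the 173 miRNAs. The members then lay 0.095 to 0.34 above that median. The direction of the difference thus depended on the scaling, and a p above the threshold here does not show that the lines responded alike.

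The a and b copies were then compared by their ratio within an array, in which any scaling factor cancels. The ratio of 1 array also holds how well each probe binds, so only its change between arrays is read. How far a probe also binds the other copy, with 1 base different, was not tested. The log2 ratio of miR-23a-3p to miR-23b-3p, from signals as scanned, was 0.93 and 0.92 on the BT474 PBS arrays and 0.94 and 0.96 on the BT474 trastuzumab arrays. In SKBR3 it was 0.74 with PBS and 0.71 and 0.74 with trastuzumab. The lines did not overlap. Between trastuzumab and PBS the scanned ratio differed by 0.028 in BT474 and by -0.017 in SKBR3. Pairs of single probes gave 0.0035 to 0.12 for this difference in BT474. The ratio of the summed signals had a mean of 0.94 ± 0.018 (SD, n = 4) in BT474 and 0.73 ± 0.018 (SD, n = 3) in SKBR3, a difference of 0.20. The exact two-sided permutation test gave p = 0.0571, the smallest that 4 arrays against 3 can give, and 0.114 after adjustment over 4 ratios, so that this design could not pass 0.05. From the 4 pairs of single probes the difference was 0.10 to 0.36, above 0 in 4 of 4.

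After quantile normalization the difference in this ratio turned, to -0.055 (exact permutation p = 0.343). With quantile normalized mean spots it was -0.033, while normexp correction gave 0.17 and mean spots scaled to the 75th percentile gave 0.22. A higher ratio of the miR-23a-3p signal to the miR-23b-3p signal in BT474 was thus seen in some settings and not in others, and the cause of the turn was not tested.

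The log2 ratio of miR-27a-3p to miR-27b-3p was 0.24 and 0.31 with PBS and 0.49 and 0.48 with trastuzumab in BT474. In SKBR3 it was 0.15 with PBS and 0.25 and 0.19 with trastuzumab. Here the BT474 trastuzumab arrays stood apart from the other 5, while the BT474 PBS and SKBR3 arrays overlapped. Between the lines the means differed by 0.18 (exact permutation p = 0.114, 0.152 adjusted over 4 ratios), and the single probe pairs gave -0.063 to 0.45. After quantile normalization this difference was 0.077. As scanned, it was 0.12 on the PBS arrays alone and 0.27 on the trastuzumab arrays alone. Between trastuzumab and PBS within BT474 the ratio differed by 0.21 in the signals as scanned, by 0.11 to 0.33 in the single probe pairs and by 0.098 after quantile normalization. With 2 arrays against 2 the smallest exact two-sided p is 0.333, which was the value for the scanned and the normalized ratio. In SKBR3 the same difference was 0.065 as scanned and 0.010 after quantile normalization. For miR-23a-3p to miR-23b-3p the treatment difference in BT474 was 0.028 as scanned and -0.11 after quantile normalization (exact permutation p = 0.333 for both). The scanned single probe pairs gave 0.0035 to 0.12. The size of this difference thus depended on the probe, and its direction on the normalization.

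**Figure D4:**
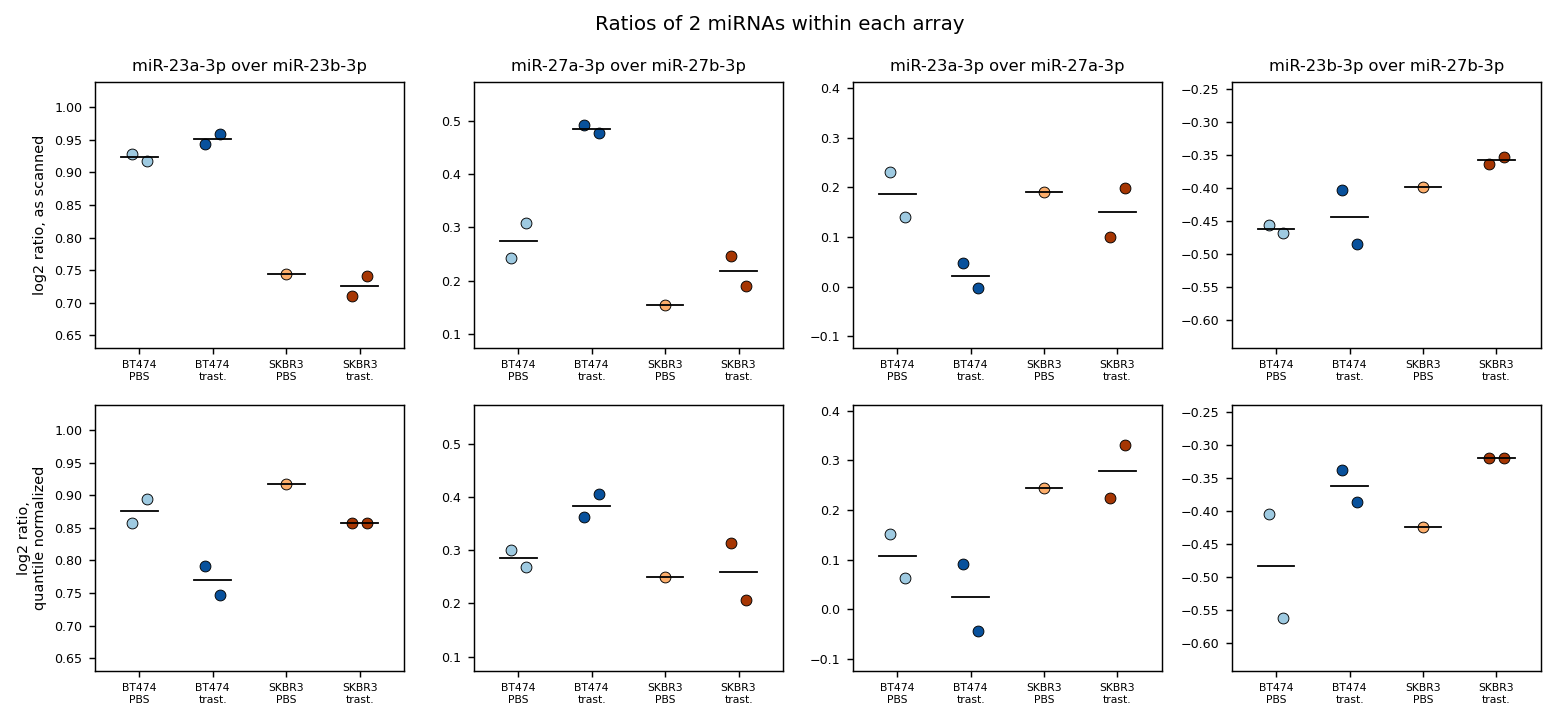
log2 ratio (y axis) of 2 miRNAs on the same array, by cell line and treatment (x axis), from signals as scanned (upper row) and after quantile normalization (lower row); points are arrays, bars are group means, SKBR3 PBS has 1 array, and each ratio has its own y range. As scanned, miR-23a-3p over miR-23b-3p separates the lines (0.92 to 0.96 against 0.71 to 0.74) and miR-27a-3p over miR-27b-3p is highest on the BT474 trastuzumab arrays; after normalization the lines meet in the first ratio.

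Within each cluster, the ratio of miR-23 to miR-27 was compared in the same way. On chromosome 19, the log2 ratio of miR-23a-3p to miR-27a-3p had a mean of 0.10 ± 0.10 (SD, n = 4) in BT474 and 0.16 ± 0.054 (SD, n = 3) in SKBR3, and the lines overlapped (difference -0.060, exact permutation p = 0.400). The difference was -0.10 to -0.024 when 1 array was left out and -0.30 to 0.13 in the single probe pairs, so that its direction depended on the probe. It was -0.0056 on the PBS arrays alone and -0.13 on the trastuzumab arrays alone. After quantile normalization the difference was -0.20 and the lines did not overlap (exact permutation p = 0.0571, 0.229 adjusted over 4 ratios), so both its size and the overlap depended on the scale of the values. Within BT474 the scanned ratio was 0.23 and 0.14 with PBS and 0.048 and -0.0036 with trastuzumab, a difference of -0.16 (-0.083 after quantile normalization). For the chromosome 9 cluster, the log2 ratio of miR-23b-3p to miR-27b-3p was -0.45 ± 0.035 (SD, n = 4) in BT474 and -0.37 ± 0.024 (SD, n = 3) in SKBR3 (exact permutation p = 0.0571, 0.114 adjusted over 4 ratios). The lines did not overlap as scanned, but did after quantile normalization (difference -0.068, exact permutation p = 0.457). The single probe pairs gave differences of -0.29 to 0.054, so the direction depended on the probe. In BT474 this ratio differed by 0.018 between trastuzumab and PBS as scanned and by 0.12 after quantile normalization.

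Each member was read by a brighter and a dimmer probe. For all 5, the dimmer probe gave the larger difference between the lines in signals as scanned, for example 1.67 against 1.41 for miR-27a-3p and 1.54 against 1.37 for miR-23a-3p. The 2 probes of miR-24-3p lay closest, with 1.57 and 1.64. Spots of 1 probe varied little, with a median SD of 0.055 to 0.095 on the log2 scale per probe.

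To set the ratios in context, a fixed list of 12 pairs of related miRNAs was read the same way, and in 11 of them both were detected on all 7 arrays. Their ratios differed between the lines by 0.049 to 3.88 on the log2 scale in size, with a median of 0.55, and did not overlap in 8 of 11. The ratio of miR-130a-3p to miR-130b-3p differed by -3.88 and that of miR-30a-5p to miR-30d-5p by -2.29, while miR-19a-3p to miR-19b-3p differed by 0.049. The miR-23 and miR-27 pairs, with 0.20 and 0.18, lay in the lower part of this range. For treatment in BT474 the 11 pairs gave -0.16 to 1.55 with a median of 0.34, so the 0.21 of the miR-27 pair was within their range.

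The other arms of the 6 hairpins and their relatives were nearly absent. Of 9 such miRNAs on the array, miR-23a-5p, miR-23b-5p, miR-27a-5p, miR-27b-5p, miR-24-2-5p, miR-23c, miR-3074-5p and miR-3074-3p were not detected on any of the 7 arrays. miR-23c, from the X chromosome, shares the miR-23 seed, and miR-3074 is read from the strand opposite MIR24-1. The exception was miR-24-1-5p, which is made by the chromosome 9 hairpin alone and is shown with its chromosome 19 counterpart because only these arms could tell the 2 sources of miR-24 apart.
hsa-miR-24-1-5p: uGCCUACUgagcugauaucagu
hsa-miR-24-2-5p: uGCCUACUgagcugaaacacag

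Over 22 bases these arms share the seed and differ at 6 places (U16A, U18C, C19A, A20C, G21A and U22G). miR-24-1-5p was detected on 3 of 4 BT474 arrays, with summed signals of 54.8 with PBS and 52.7 and 67.8 with trastuzumab, and on 0 of 3 SKBR3 arrays. On those 3 arrays 0, 2 and 3 of its 30 spots were well above background, and 0 of 30 on every other array. These signals lay near the detection limit, with errors of 28.0% to 33.1%. The difference between the lines did not pass (limma adjusted p = 0.0641), and no fold is given because after normalization the mean of the lowest signals detected on the SKBR3 arrays lay above miR-24-1-5p on every BT474 array. Detection of the chromosome 9 arm in BT474 alone therefore rests on weak signals and says nothing of the chromosome 19 source.

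Likeness over the 7 arrays was read by the Pearson correlation of the normalized log2 signal with the 172 other miRNAs detected on all of them. The arrays fall into 2 lines, so that the values mostly describe a shared difference between lines and treatments, and no p is given. miR-23a-3p and miR-23b-3p were each other's closest (r = 0.992), followed for both by miR-27a-3p (r = 0.922 and 0.923). miR-27a-3p and miR-27b-3p were likewise each other's closest (r = 0.987), followed by miR-24-3p (r = 0.965 and 0.980). The closest to miR-24-3p were miR-27b-3p (r = 0.980) and miR-181a-5p (r = 0.978). Of the 10 places, 9 were thus taken by other members. Whether paralogs are more alike than neighbours within a cluster was not tested, and binding of a probe to the other copy would raise their values.

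The lines were checked against marker miRNAs of cell types. Of the epithelial markers, miR-200c-3p and miR-141-3p were detected on all 7 arrays, while miR-200a-3p, miR-200b-3p and miR-429 were detected on 4 of 4 BT474 arrays and 0 of 3 SKBR3 arrays. Of 14 markers of stroma, endothelium, blood, liver and muscle, 11 were not detected on any array. miR-126-3p of endothelium was detected on 3 BT474 arrays with at most 88.5, miR-451a of blood on 1 with 57.3, and miR-1 of muscle on 4, and none of them on an SKBR3 array. In BT474 the signal of miR-1 was 127 and 173 with PBS and 286 and 382 with trastuzumab, a log2 difference of 1.01 after normalization (adjusted p = 0.0327 by limma). As for all miRNAs, this call was lost with mean spots and with the deposited values, and the cause of the difference was not tested.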

How the data were processed

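Summed signals per miRNA, detection flags and spot values are intensities that the authors deposited as written by the Agilent Feature Extraction software, with background subtracted and with no normalization between arrays. The log2 values deposited by the authors, 1 for each of 4774 probes, were quantile normalized within each line, with a median of 5.34 to 5.35 on the BT474 arrays and of 5.28 on each SKBR3 array, and were used only as an alternative. The submitters name BRB Array Tools for this step. No sample was pooled.

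The 5 members were taken by their systematic name among non-control spots. Quantile normalization of the summed signals ran over the 7 distinct arrays, with a floor of 10 before log2. The copied array was left out. Comparisons used R 4.3.3 with limma 3.58.1, with moderated variances, on all miRNAs not at the floor on every array of the fit, with Benjamini-Hochberg adjustment over them, and were tested on simulated data. Each line was fitted alone for treatment. The t-test among the alternatives was a plain one, without the random variance model that the paper names. The line difference and the interaction used 1 mean per group. Ratios were taken from signals before normalization, since a scaling factor cancels within an array, and compared with exact permutation tests in scipy 1.17.1. Normalized ratios were added after the data were seen. Tables and plots used Python 3.11.15, pandas 2.3.3, numpy 2.4.6 and matplotlib 3.10.9. Named miRNAs were the members, the other arms and relatives, the 2 most correlated miRNAs of each member, 12 paralog pairs and cell type markers. Members and lists were chosen with earlier results of these data known. Between replicates of a group the log2 signal had a median residual SD of 0.107 in BT474 (221 miRNAs detected on every array) and 0.0687 in SKBR3 (188 miRNAs), from 4 and 3 arrays. Alternatives tried were no normalization, arrays scaled by their 75th percentile of detected miRNAs, normalization within each line, the mean of the spots, normexp background correction, the deposited values, floors of 1 and 30, other filters, the 8 labelled arrays, a fit to all distinct arrays, the replicate number as a block, a t-test and leaving out each array. For mean spots the 75th percentile was taken over all 2006 miRNAs, most of them not detected.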

Additional observations from a re-analysis of the deposited data

How the results depend on the processing

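The 5 members were higher in BT474 than in SKBR3 under each alternative. In the treatment comparisons the direction turned for miR-24-3p in BT474 after scaling to the 75th percentile (-0.016), and for miR-27a-3p (-0.0083) and miR-24-3p (-0.082) in SKBR3 with the 8 labelled arrays. The interaction turned after scaling to the 75th percentile for miR-23a-3p (-0.19), miR-23b-3p (-0.23), miR-27a-3p (-0.066), miR-27b-3p (-0.21) and miR-24-3p (-0.31), and for miR-24-3p without normalization (-0.039). None of these values passed the threshold, and the cause was not tested.

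Members passing between the lines numbered 5, but 4 with no filter, 2 with quantile normalized mean spots, 1 on the PBS arrays and 0 with the 8 labelled arrays, and 4 (without miR-23a-3p) to 5 when 1 array was left out. In BT474 with trastuzumab 0 passed, but 1 with floor 30 (43 of 267 miRNAs). Among miRNAs detected on every array 2 passed (45 of 221), with normexp 2 and in the fit to all distinct arrays 3. In SKBR3, 0 passed, but 3 with no filter, where the 3 have equal values on both trastuzumab arrays and the assumed spread is 0, so that these calls carry no weight. The unadjusted count of members also fell from 5 to 3 with no filter and in the t-test in BT474, and from 3 to 1 in the fit to all distinct arrays in SKBR3. Leaving out 1 array gave 0 members passing in each treatment comparison and in the interaction.

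Over all miRNAs, 41 passed in BT474 with trastuzumab, but 19 without normalization, 3 with no filter, 105 with normexp, 74 in the fit to all distinct arrays, and 0 in limma with mean spots scaled to the 75th percentile, with quantile normalized mean spots (227 and 186 at an unadjusted p under 0.05) and with the deposited values. A plain t-test gave 26 at the study's thresholds and 3 adjusted. Leaving out 1 array gave 25 to 36. In SKBR3, 15 passed, but 26 with no filter, 44 with normexp, 3 with the 8 labelled arrays, 36 in the fit to all distinct arrays, and 0 in limma with scaling to the 75th percentile, with mean spots scaled so, with miRNAs detected on every array, with quantile normalized mean spots and with the deposited values (43, 353, 60, 267 and 144 unadjusted). The plain t-test gave 11 at the study's thresholds and 0 adjusted (22 unadjusted), with no value where both trastuzumab arrays were equal. Without 1 trastuzumab array, 20 to 42 passed in the fit to the other 6 arrays, in which a lone sample is assumed to vary like the others; without the lone PBS array there is no value. Between the lines 209 passed, but 357 with mean spots scaled to the 75th percentile, 342 with quantile normalized mean spots, 134 with no filter, 409 with normexp and 6 with the 8 labelled arrays, and 187 to 208 when 1 array was left out. For the interaction 49 passed, but 25 without normalization, 136 and 76 with the mean spots scaled and quantile normalized, 23 among miRNAs detected on every array, 8 with no filter, 87 with normexp and 5 with the 8 labelled arrays, and 29 to 74 when 1 array was left out.

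Higher and lower calls numbered 24 and 17 in BT474 with trastuzumab, but 23 and 35 after scaling to the 75th percentile, 7 and 19 without PBS replicate 1 and 6 and 19 without PBS replicate 2. In SKBR3 they numbered 7 and 8, but 10 and 6 without normalization, 41 and 3 with normexp, 7 and 19 with no filter and 6 and 14 without trastuzumab replicate 1. Between the lines they numbered 102 and 107, but 165 and 21 without normalization and 52 and 92 among miRNAs detected on every array. For the interaction they numbered 30 and 19, but 16 and 35 after scaling to the 75th percentile, 11 and 14 without normalization, 111 and 25 with mean spots scaled to the 75th percentile, 59 and 17 with quantile normalized mean spots, 23 and 29 without BT474 PBS replicate 1 and 13 and 74 with normexp.

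With the replicate block, 0 miRNAs passed in BT474 with trastuzumab (limma; 73 unadjusted, 3 members among them); between the lines 196 and 5 members passed. Deviations of same-numbered BT474 arrays had a correlation of 0.21 over 221 miRNAs, and the labels share only a number, which in BT474 matches the slide column.

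The ratio of miR-23a-3p to miR-23b-3p turned between the lines with quantile normalized values (-0.055, added after seeing the data) and mean spots (-0.033). For miR-23a-3p to miR-27a-3p -0.060 became -0.20 and -0.18, and for miR-27a-3p to miR-27b-3p 0.18 became 0.077 and 0.088. Single probe pairs reached -0.063 for miR-27a-3p to miR-27b-3p, 0.13 for miR-23a-3p to miR-27a-3p and 0.054 for miR-23b-3p to miR-27b-3p. Leaving out 1 array gave 0.19 to 0.21, 0.15 to 0.23, -0.10 to -0.024 and -0.098 to -0.071 for the 4 ratios in the order of the report.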
